A study of Homo sapiens with 15 samples.

Results

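The 3p arms of the human miRNAs numbered miR-6715 to miR-6895, a block of names rich in mirtrons, were followed through small RNA libraries of cells treated with FTO siRNA and of RNA precipitated with an anti-m6A antibody. The block was taken up with earlier results of these data known. Its members were set by name alone, as every listed name from miR-6715 to miR-6895, with any letter, that ends in -3p. There were 160 among the 2418 miRNAs of the knockdown libraries and 130 among the 2189 miRNAs of the precipitation libraries. In all, 162 of 2424 miRNAs met the rule, of which 128 were counted in both experiments, 32 only in the knockdown and 2, miR-6870-3p and miR-6890-3p, only in the precipitation. All libraries came from FTO1C1, FTO2D4 and FTO3C3, Flp-In 293 T-Rex clones derived from the human embryonic kidney line HEK293. Each group thus held 3 libraries, 1 per clone. The paper gives the clones as uninduced for the knockdown and states no induction state for the precipitation. The scrambled siRNA and FTO siRNA groups were harvested 48 h after transfection with 10 nM siRNA. The labels of the input, IgG and m6A samples name no siRNA treatment. These samples hold the small RNA before precipitation, the RNA bound by an isotype control antibody and the RNA bound by the anti-m6A antibody.

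A mirtron is a short intron that folds into a hairpin after splicing and lariat debranching, so that it enters the miRNA pathway at Dicer without cleavage by Drosha. Its 3p arm usually runs up to the 3′ splice site, where introns have a pyrimidine tract followed by AG. N6-methyladenosine (m6A) is a methyl mark on adenosine that FTO can remove, and an anti-m6A antibody is meant to bind RNA that carries it, while the IgG sample measures RNA retained without it. A miRNA finds its targets mainly through its seed, bases 2 to 8.

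RefSeq (GRCh38.p14) held a mature sequence for 143 of the 162 3p arms. The most abundant of them after scrambled siRNA are printed first, 5′ to 3′ with the seed in capitals, since they carry most of the reads:
miR-6735-3p: aGGCCUGUggcuccucccucag
miR-6765-3p: uCACCUGGcuggcccgcccag
miR-6730-3p: cCUGACACcccaucugcccuca
miR-6719-3p: uCUGACAUcagugauucuccug
miR-6832-3p: aCCCUUUUucucuuucccag
miR-6746-3p: cAGCCGCCgccugucuccacag
miR-6872-3p: cCCAUGCCuccugccgcgguc
miR-6853-3p: uGUUCAUUggaacccugcgcag
miR-6780a-3p: cUCCUCUGuuuucuuuccuag

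Positions are given with the protein-coding gene whose span holds them. The table of genes used gives neither strand nor exons, so intron and exon were not told apart. miR-6765-3p lies at chr14:105150778-105150798 (-) in JAG2, which encodes a Notch ligand. miR-6730-3p lies at chr1:12578958-12578979 (-) in DHRS3, a gene of retinoid metabolism, and miR-6719-3p at chr19:39829726-39829747 (-) in the kinase gene DYRK1B. miR-6832-3p lies at chr6:31633839-31633858 (+) in PRRC2A and miR-6746-3p at chr11:61878216-61878237 (-) in FADS3. miR-6872-3p lies at chr3:50273275-50273295 (+) in SEMA3B and miR-6853-3p at chr9:35732974-35732995 (+) in CREB3. miR-6780a-3p lies at chr17:42708084-42708104 (-) in EZH1, which encodes a Polycomb histone methyltransferase.

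The next set holds 3p arms named in the comparisons that follow. First come miR-6739-3p and miR-6795-3p, called in the knockdown, and miR-6769a-3p, which had the lowest fold change there without passing the main test. Then come those higher in m6A than in IgG samples, and last those high in both precipitates:
miR-6739-3p: aUUGUUCUgucuuucucccag
miR-6795-3p: aCCCCUCGuuucuucccccag
miR-6769a-3p: gAGCCCCUcucugcucuccag
miR-6890-3p: cCACUGCCuaugccccacag
miR-6757-3p: aACACUGGccuugcuaucccca
miR-6734-3p: cCCUUCCCucacucuucucucag
miR-6752-3p: uCCCUGCCcccauacucccag
miR-6729-3p: uCAUCCCCcucgcccucucag
miR-6800-3p: cACCUCUCcuggcaucgcccc
miR-6760-3p: aCACUGUCcccuucuccccag
miR-6805-3p: uUGCUCUGcucccccgcccccag

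miR-6739-3p lies at chr1:201863427-201863447 (+) in IPO9, which encodes a nuclear import receptor, and miR-6795-3p at chr19:15179283-15179303 (-) in NOTCH3, a Notch receptor gene. miR-6769a-3p lies at chr16:4671370-4671390 (+) in MGRN1. miR-6890-3p lies at chr3:49099854-49099873 (-) in QARS1, the glutaminyl-tRNA synthetase gene, and miR-6757-3p at chr12:53056990-53057011 (+) in TNS2. miR-6734-3p lies at chr1:43364648-43364670 (-) in ELOVL1, a gene of fatty acid elongation. miR-6729-3p lies at chr1:12029202-12029222 (+) in MIIP and miR-6800-3p at chr19:49832076-49832096 (+) in the Mediator gene MED25. miR-6760-3p lies at chr12:111304189-111304209 (+) in CUX2 and miR-6805-3p at chr19:55388220-55388242 (+) in RPL28, a ribosomal protein gene.

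The sequences were compared with the label of a mirtron-rich block. Of the 143 sequences, 108 (75.5%) ended in AG and 91 (63.6%) in CAG, whereas 6.71% of 149 5p arms of the same block and 8.07% of 1835 other miRNAs ended in AG. Of the 135 with a RefSeq hairpin, 74.8% reached the 3′ end of the hairpin. For 140 of 143 the position fell within the span of a protein-coding gene. The hairpin began with GU, the usual start of an intron, for only 16 of 135. C or U made up a median of 71.4% of the bases of a 3p arm, against 31.8% in the 5p arms and 47.8% in the other miRNAs. They held few adenosines, with a median of 2 per miRNA against 4 in the 5p arms and 5 in the others. At most 3 adenosines were found in 79.7% of the 3p arms, 36.2% of the 5p arms and 27.1% of the others. One sequence, miR-6886-3p, held no adenosine:
miR-6886-3p: uGCCCUUCucuccuccugccu

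m6A in mRNA is known for a context of purine, purine, A, C and then A, C or U. This motif, searched on the strand of the miRNA as AAAC, as AGAC, as GAAC or as GGAC with any next base but G, was present in 11 (7.69%) of the 3p arms, 22.1% of the 5p arms and 22.6% of the other miRNAs. Its form GGAC, searched without the next base, was present in 2 of the 3p arms (1.40%), 12.8% of the 5p arms and 9.75% of the others. The pair with GGAC is shown for this reason:
miR-6816-3p: gAAGGACCugcaccuucg
miR-6840-3p: gCCCAGGAcuuugugcggggug

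miR-6816-3p lies at chr22:20114693-20114710 (-) in TRMT2A and miR-6840-3p at chr7:100356696-100356717 (+). The 143 sequences held 138 different seeds, of which 5 were shared by a pair each, so the block is not a family by seed.

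The libraries held 1991317 to 3876806 miRNA reads in the knockdown, 1408702 to 1500357 in input, 186446 to 786688 in IgG and 569501 to 4973238 in m6A samples. Values are given in RPM, the reads of a miRNA scaled by all miRNA reads of its library, with mean ± SD over the 3 clones. They are shares of a bulk sample, so fewer cells with a miRNA and less of it per cell cannot be told apart. 5 miRNAs common in HEK293 cells summed to 419856 to 518758 RPM in the knockdown and 157984 to 258065 RPM in input, whereas markers of liver, blood, muscle and neurons, of which 7 of 8 and 6 of 8 were listed, summed to 89.9 to 140 RPM and 454 to 887 RPM. Of the input sums, the blood marker miR-223-3p alone held 406, 822 and 525 RPM, against 44.0, 54.4 and 68.8 RPM with scrambled siRNA. The part of these markers in the results was not tested. A miRNA outside the block, miR-6080, took 58.0 to 71.6% of the IgG reads, 41.3 to 47.8% of the m6A reads and 15.5 to 28.4% of the input reads. In the input library of FTO3C3 another one, miR-3168, took the largest share, 32.3%, and totals without miR-6080 still hold its reads. miR-6080 had the identical count of 563404 in the IgG and m6A libraries of FTO2D4, so the counts of the precipitation are also given without this clone.

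The 3p arms as a whole held a small share of the miRNA reads in every group. Their sum was 8384 ± 390 RPM with scrambled siRNA, 10090.4 ± 944 RPM with FTO siRNA, 11024 ± 2225 RPM in input, 13686 ± 641 RPM in IgG and 13597 ± 652 RPM in m6A samples (SD, n = 3 each). The half-width of the Wilson 95% interval of a library's sum, which covers counting error only, was at most 526 RPM. With scrambled siRNA the median 3p arm had 7.68 RPM, against 15.1 RPM for all miRNAs of these libraries, and 45 3p arms were below 5 RPM. The rule for an expressed miRNA, 15 RPM or more with scrambled siRNA in each clone, was met by 40 of 160 (25%), against 42.7% of all miRNAs.

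The 4 most abundant 3p arms held 64.5% of the reads of all 3p arms after scrambled siRNA. miR-6735-3p had 2779, 2179 and 1687 RPM in FTO1C1, FTO2D4 and FTO3C3 with scrambled siRNA (2215 ± 547 RPM). miR-6765-3p had 1144, 1789 and 1331 RPM (1422 ± 332 RPM). miR-6730-3p had 871, 1168 and 869.8 RPM (969 ± 172 RPM). These levels overlapped between neighbours in the order, and so did those of miR-6719-3p, which had 769, 986 and 642 RPM (799 ± 174 RPM). A gap followed, since miR-6832-3p had 241, 204 and 419 RPM (288 ± 115 RPM). miR-6785-3p had 207 ± 53.9 RPM, miR-6746-3p 147 ± 16.9 RPM, miR-6872-3p 132 ± 21.98 RPM, miR-6853-3p 114 ± 62.6 RPM and miR-6780a-3p 98.3 ± 14.1 RPM, with ranges that overlapped between neighbours. In input the order began with miR-6735-3p (2329 ± 518 RPM) as well, but it differed in IgG samples, where miR-6735-3p had 19.5 ± 11.02 RPM, and in m6A samples, where it had 10.1 ± 6.23 RPM.

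**Figure D1:**
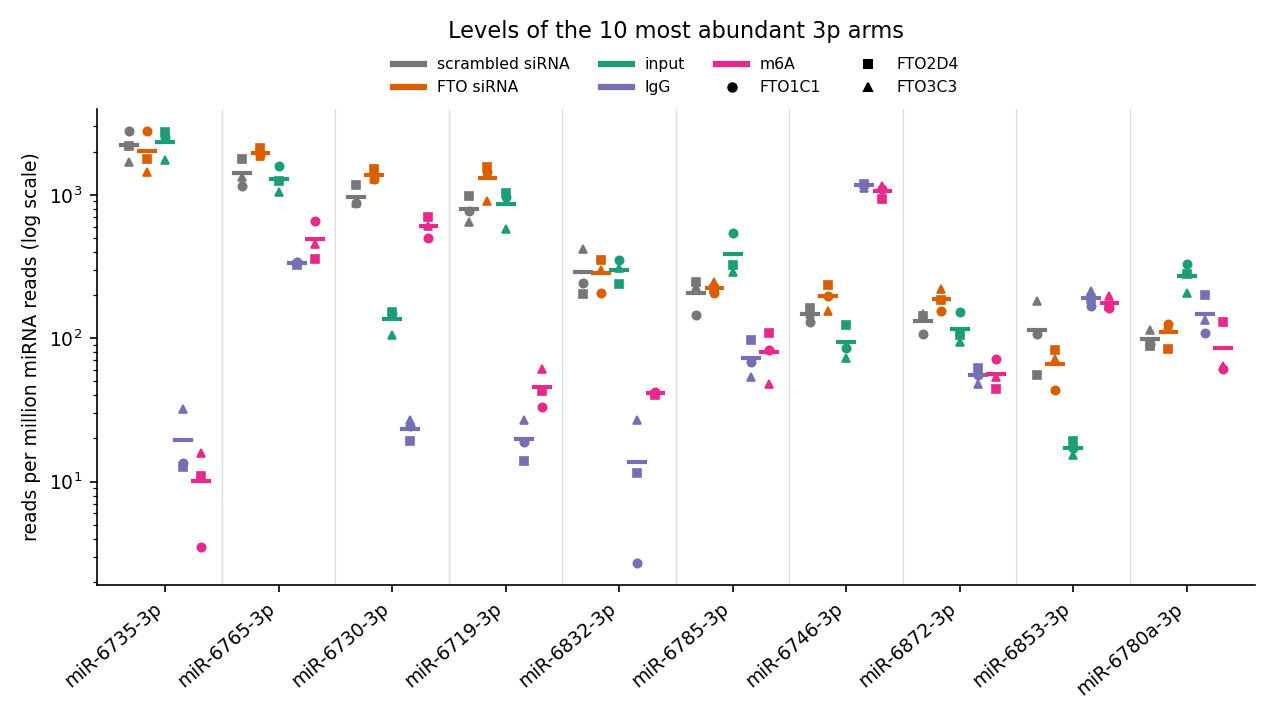
RPM of total miRNA reads (log axis) of the 10 most abundant 3p arms in the 15 libraries. Points are libraries, shaped by clone, and bars are group means. miR-6735-3p lay between 1448 and 2795 RPM in the scrambled siRNA, FTO siRNA and input libraries and at 32.2 RPM or less in IgG and m6A libraries, whereas miR-6746-3p was at 934 RPM or more in every IgG and m6A library and at 235.6 RPM or less in the others.

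The knockdown comparison asked whether the levels of the 3p arms change when FTO is reduced. FTO mRNA is not part of these counts and was not analysed here. 3 of the 151 3p arms tested rose after FTO siRNA: miR-6739-3p, miR-6795-3p and miR-6719-3p. This was 1.99% of them, against 4.97% of all 2374 miRNAs tested. None fell, against 0.505% of all. At an unadjusted p under 0.05 there were 28 higher (18.5%, against 23.9% of all) and 1 lower (0.662%, against 2.23%). Of the 175 5p arms tested, 6 rose (3.43%) and 0 fell. The median log2 fold change was 0.30 for the 3p arms, 0.31 for the 5p arms and 0.29 for all miRNAs, so the 3p arms lay 0.01 from the median of all. With TMM factors, which move the median of all miRNAs by -0.29, 1 of the 151 was higher and 1 lower, against 0.885% and 1.43% of all miRNAs, and DESeq2 called 0 higher and 1 lower. DESeq2 gave no adjusted p for 119 of the 151, miR-6739-3p and miR-6795-3p among them, so its counts leave these out.

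miR-6739-3p had 8.25, 6.09 and 7.03 RPM with scrambled siRNA and 23.0, 29.5 and 27.3 RPM with FTO siRNA. All 3 FTO siRNA libraries were above all scrambled siRNA libraries. The means were 7.12 ± 1.08 and 26.6 ± 3.30 RPM, and the log2 fold change was 1.86 ± 0.23 (SE), which is 1.57 above the median of all miRNAs (edgeR quasi-likelihood test, Benjamini-Hochberg adjusted p = 0.00344). These levels rest on 14 to 30 reads per scrambled siRNA library and 80 to 106 reads per FTO siRNA library. Its 5p arm had 37.9 ± 9.31 RPM with scrambled siRNA and 56.5 ± 3.42 RPM with FTO siRNA, a log2 fold change of 0.61 ± 0.22 that did not pass the test (edgeR adjusted p = 0.12).

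miR-6795-3p had 15.9, 24.4 and 11.05 RPM with scrambled siRNA and 44.5, 35.5 and 24.8 RPM with FTO siRNA. The groups did not overlap, although FTO3C3 with FTO siRNA and FTO2D4 with scrambled siRNA lay side by side. Its log2 fold change was 1.06 ± 0.23 (edgeR adjusted p = 0.0323), a call that was lost with TMM factors (0.75, adjusted p = 0.135). Its 5p arm had 11.3 ± 1.10 and 12.3 ± 1.23 RPM, with a log2 fold change of 0.12 ± 0.22 (edgeR adjusted p = 0.75).

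miR-6719-3p had 769, 986 and 642 RPM with scrambled siRNA and 1442, 1549 and 909.8 RPM with FTO siRNA. It was higher in each clone, by 1.88-, 1.57- and 1.42-fold, although the ranges of the groups overlapped. Its log2 fold change was 0.69 ± 0.15 (edgeR adjusted p = 0.0323), which is 0.40 above the median of all miRNAs. This call was lost with TMM factors (0.40, adjusted p = 0.2) and with DESeq2 (0.39, adjusted p = 0.18). Of the other 3 most abundant 3p arms, miR-6765-3p had a log2 fold change of 0.49 ± 0.15 (edgeR adjusted p = 0.0779), miR-6730-3p of 0.50 ± 0.14 (edgeR adjusted p = 0.0653) and miR-6735-3p of -0.17 ± 0.14 (edgeR adjusted p = 0.451). None of these passed the test.

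The lowest fold change of all 3p arms was that of miR-6769a-3p. It had 54.2, 45.1 and 121 RPM with scrambled siRNA and 31.6, 37.3 and 32.8 RPM with FTO siRNA. The groups did not overlap, but FTO3C3 with scrambled siRNA stood far above the others. A log2 fold change of -0.99 ± 0.29 did not pass the test (edgeR adjusted p = 0.0723), whereas the test was passed with TMM factors (-1.28, adjusted p = 0.029) and with DESeq2 (-1.28, adjusted p = 0.00089). miR-6853-3p had 107, 55.6 and 180.3 RPM with scrambled siRNA and 43.4, 82.6 and 72.0 RPM with FTO siRNA. FTO2D4 went up and the other two clones went down, and the log2 fold change of -0.71 ± 0.34 did not pass the test (edgeR adjusted p = 0.213). Without FTO2D4 both were called lower, miR-6769a-3p at -1.34 (edgeR adjusted p = 0.00091) and miR-6853-3p at -1.31 (edgeR adjusted p = 0.00055).

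**Figure D2:**
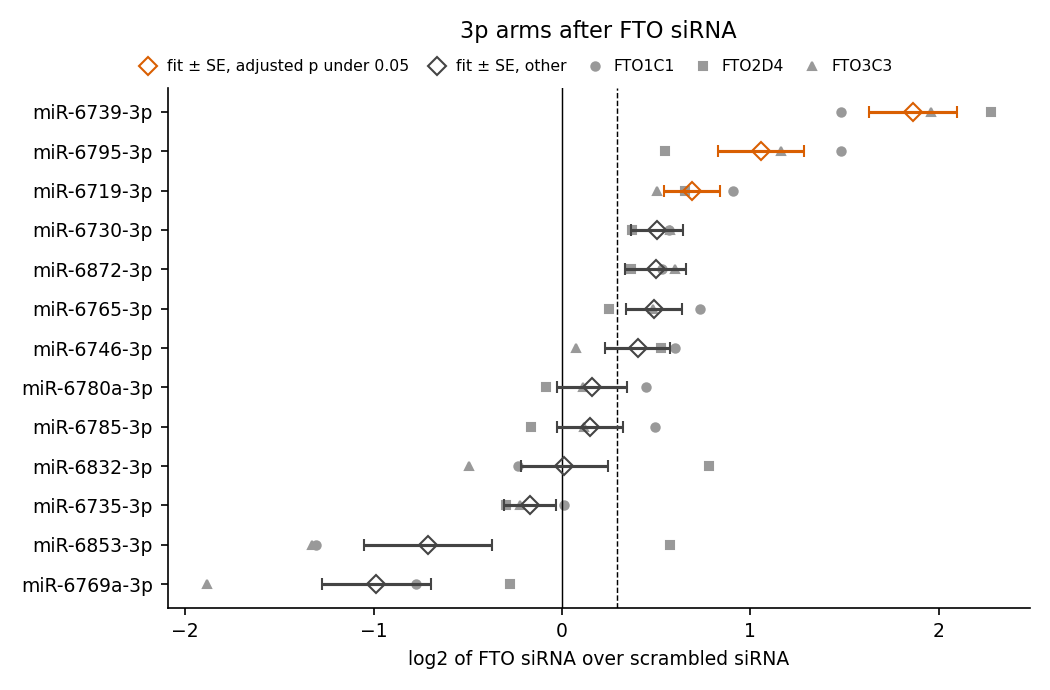
Log2 of FTO siRNA over scrambled siRNA for the 10 most abundant 3p arms and for miR-6739-3p, miR-6795-3p and miR-6769a-3p. Diamonds with bars are the edgeR fold change ± SE, grey points are the ratios within each clone, and the dashed line is the median of all miRNAs tested (0.29). miR-6739-3p stood at 1.86 with all 3 clones to the right of the dashed line, and miR-6853-3p had clones on both sides of 0.

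A simpler rule was built on the read and fold thresholds of the study, with the mean of the 3 ratios within the clones as the fold, which is a choice made here. With a threshold of 1.5, 13 of the 51 3p arms that had 15 RPM or more with FTO siRNA in each clone were increased (25.5%, against 21.4% of all miRNAs), and 1 of 40, miR-6769a-3p, was decreased (2.5%, against 1.65%). With TMM-scaled RPM 2 were increased and 3 decreased. The calls of the edgeR test depended on the clones. Without FTO1C1 no 3p arm was called, without FTO2D4 3 were higher and 2 lower, and without FTO3C3 9 were higher. Without the clone as a block only miR-6739-3p was called. The shares of all miRNAs with TMM-scaled RPM, with a clone left out or without the block are not given here. These counts therefore show only how the calls depend on the setting. The clones are separate lines from 1 parent. With the clone as a block, the p-values measure how far the difference between the groups varied among these clones.

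The comparison of m6A with IgG samples asked which 3p arms the anti-m6A antibody bound beyond the control antibody. 15 of the 115 3p arms tested were higher in m6A samples (13.04%), against 38.6% of all 2054 miRNAs and 44.4% of the 162 5p arms. 5 were lower (4.35%), against 1.27% of all miRNAs and 0 of the 5p arms. The median log2 fold change was -0.04 for the 3p arms, 1.01 for the 5p arms and 0.83 for all miRNAs, so the 3p arms lay 0.87 below the median of all. 95 of the 115 lay below it. The 15 3p arms not tested had too few reads for the filter.

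With TMM factors the median of all miRNAs moved by -0.77 to 0.06, and the 3p arms lay 0.86 below it with a median of -0.80. The calls were then 9 higher and 39 lower of 115, that is 7.83% and 33.9%, against 22.1% and 14.7% of all miRNAs. All 15 higher 3p arms kept their direction with TMM factors and 9 of them their call, and the 5 lower kept both. Since TMM factors moved the median down, lower calls could hardly be lost in this setting. Without FTO2D4 8 were higher, 13 without either other clone, and the lower calls were 2, 1 and 1 without FTO1C1, FTO2D4 and FTO3C3. With totals that leave out miR-6080 9 were higher and 34 lower. The shares of all miRNAs with a clone or miR-6080 left out are not given here, so these counts show only how the calls depend on the setting.

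miR-6730-3p had 24.3, 19.1 and 26.8 RPM in IgG and 497, 702 and 607 RPM in m6A samples. It was 20.5-, 36.8- and 22.6-fold higher in the 3 clones. The log2 fold change was 4.70 ± 0.36 (edgeR adjusted p = 1.57e-05), the highest of the 3p arms and 3.87 above the median of all miRNAs. The IgG value rests on 18, 15 and 5 reads. The 5p arm of the same hairpin had 24.2 ± 2.62 RPM in IgG and 36.1 ± 2.76 RPM in m6A samples, with a log2 fold change of 0.60 ± 0.38 (edgeR adjusted p = 0.238), so it did not pass the test.

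miR-6734-3p had 60.7, 68.6 and 59.0 RPM in IgG and 311, 1054 and 400.1 RPM in m6A samples. All clones rose, FTO2D4 most. The log2 fold change was 3.05 ± 0.39 (edgeR adjusted p = 0.000366). Its 5p arm also rose, from 18.1 ± 7.56 to 89.2 ± 24.8 RPM (log2 fold change 2.36 ± 0.38, edgeR adjusted p = 0.0012).

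miR-6757-3p had 5.39, 12.7 and 16.1 RPM in IgG and 107, 99.1 and 112 RPM in m6A samples (log2 fold change 3.34 ± 0.44, edgeR adjusted p = 0.000439). miR-6752-3p had 10.8, 8.90 and 21.5 RPM in IgG and 89.6, 120.3 and 63.9 RPM in m6A samples (2.96 ± 0.48, edgeR adjusted p = 0.00137). Neither had overlapping groups, although both rest on 10 or fewer reads in each IgG library. miR-6890-3p had 5, 1 and 0 reads in IgG and 40.4, 28.6 and 27.5 RPM in m6A samples. Its fitted log2 fold change was 3.37 ± 0.62 (edgeR adjusted p = 0.00278). In FTO3C3, where IgG had no read, the m6A sample was at least 1.71-fold higher than the value of 3 reads. These 5, from miR-6730-3p to miR-6890-3p, kept their calls with each clone left out in turn, with TMM factors and with DESeq2.

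Of the lower 3p arms, miR-6794-3p had 121, 100.4 and 85.8 RPM in IgG and 33.4, 60.9 and 37.8 RPM in m6A samples (log2 fold change -1.23 ± 0.36, edgeR adjusted p = 0.0244). miR-6738-3p had 102.5, 179 and 139 RPM in IgG and 40.4, 86.6 and 66.8 RPM in m6A samples (-1.14 ± 0.32, edgeR adjusted p = 0.0192). Each clone was lower in m6A for both. miR-6748-3p was lower by a log2 fold change of -1.19, miR-6870-3p by -1.16 and miR-6814-3p by -1.04. All 5 of these calls were lost when at least 1 clone was left out.

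By the same kind of rule, at least 100 RPM in the m6A samples and a mean ratio to IgG of at least 2, 7 of 25 3p arms were enriched (28%), against 58% of all miRNAs. These were miR-6730-3p, miR-6734-3p, miR-6784-3p, miR-6786-3p, miR-6816-3p, miR-6835-3p and miR-6840-3p. miR-6786-3p was at least 2-fold higher in FTO1C1 only, with ratios of 5.53, 1.18 and 0.558 in the 3 clones, and did not pass the test (edgeR adjusted p = 0.412).

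The values of m6A over IgG were also described by the number of adenosines. The 81 tested with at most 3 adenosines had a median log2 fold change of -0.22, and 6 were called higher (7.41%). The 25 with over 3 had a median of 0.38, and 8 were called higher (32%). Among all other miRNAs the medians were 0.34 (450 miRNAs) and 1.06 (1247 miRNAs), with 25.1% and 44.9% called higher. Spearman's rho between fold change and number of adenosines was 0.36 over the 106 3p arms with a sequence and 0.31 over 1697 other miRNAs, which is a description, since miRNAs of the same libraries are not independent replicates. With the percentage of C or U, rho was -0.34 and -0.28. Against input the picture differed between the antibodies, which share the input libraries. For m6A over input, rho with the number of adenosines was 0.09 over 113 3p arms and 0.01 over 1797 others, with medians of 1.21 and 1.53 for 3p arms with at most 3 and over 3 adenosines. For IgG over input it was -0.08 over 107 3p arms and -0.21 over the others, with medians of 1.18 and 0.58. In m6A over IgG, at the same number of adenosines, the median of the 3p arms stayed below that of the others, for example -0.12 (35) against 0.28 (132) with 2 adenosines and 0.32 (16) against 0.59 (264) with 4.

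Both 3p arms with GGAC were higher in m6A than in IgG samples. miR-6816-3p had 60.7, 55.9 and 129 RPM in IgG and 118, 142 and 416 RPM in m6A samples, with a log2 fold change of 1.33 ± 0.32 (edgeR adjusted p = 0.00977), higher in each clone although the ranges overlapped. miR-6840-3p had 109, 35.6 and 107 RPM in IgG and 365, 389.6 and 330.4 RPM in m6A samples, with 2.26 ± 0.42 (edgeR adjusted p = 0.00275). They were the 2 called among the 9 tested 3p arms with the longer motif, whose median was 0.61. The 97 without it had a median of -0.10 and 12 called higher, miR-6730-3p among them. Among all other miRNAs 196 of 418 with the motif and 477 of 1279 without it were called higher, with medians of 1.14 and 0.79. A difference by motif within the 3p arms was not tested.

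**Figure D3:**
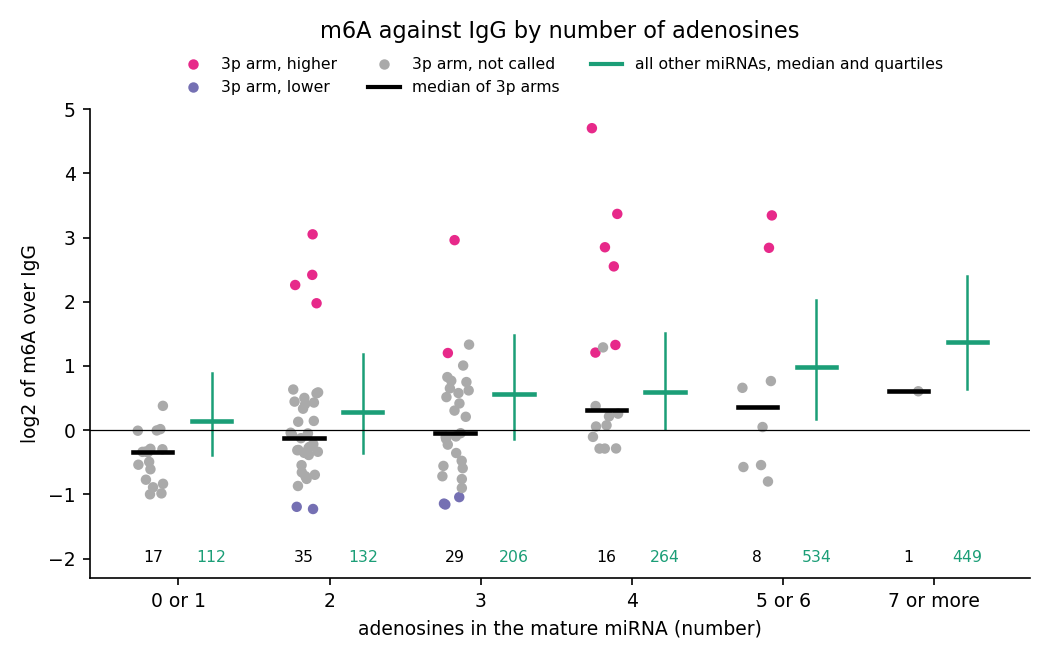
Log2 of m6A over IgG by the number of adenosines in the mature miRNA. Points are 3p arms, coloured by the call of the edgeR test, black bars are their medians, and green bars and lines are the medians and quartiles of all other miRNAs, with the number of miRNAs below. The medians of the 3p arms went from -0.34 with 0 or 1 adenosine to 0.32 with 4 and lay below those of the other miRNAs in every class.

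The comparisons with input asked what each antibody sample held relative to the RNA it was made from. Both share the 3 input libraries, so their values are not independent. In m6A samples 74 of the 127 3p arms tested were higher than in input (58.3%, against 66.8% of all miRNAs) and 16 were lower (12.6%, against 10.5%). In IgG samples 56 of 119 were higher (47.1%, against 36.8%) and 18 were lower (15.1%, against 21.8%). The median log2 fold change of the 3p arms was 1.28 in m6A (1.65 for all miRNAs) and 0.89 in IgG (0.49 for all miRNAs). With TMM factors, which moved the median of all miRNAs by -1.55 and -0.51, the calls were 33 higher and 43 lower in m6A, that is 26.0% and 33.9% against 26.4% and 28.2% of all miRNAs. In IgG they were then 45 higher and 25 lower, that is 37.8% and 21.0% against 28.8% and 30.2%. All 16 lower calls in m6A and all 18 in IgG held with TMM factors, but only 33 of the 74 and 45 of the 56 higher ones. TMM factors moved the median down, so lower calls could hardly be lost, and their holding does not show independence of the scale. With totals without miR-6080, 8 were lower in m6A and 11 in IgG, a setting for which shares of all miRNAs are not given. Without FTO2D4 64 were higher and 11 lower in m6A, and 52 higher and 14 lower in IgG, with no share of all miRNAs given for this setting.

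The lowest value in both comparisons was that of miR-6735-3p. It had 2509, 2733 and 1745 RPM in input, 13.5, 12.7 and 32.2 RPM in IgG and 3.51, 11.01 and 15.9 RPM in m6A samples. Its level was therefore far lower in every precipitate than in any input. The log2 fold change was -7.71 ± 0.58 in m6A (edgeR adjusted p = 5.32e-11) and -7.13 ± 0.54 in IgG samples (edgeR adjusted p = 7.0e-37). Its 5p arm went the other way, with 9.56 ± 2.75 RPM in input, 222 ± 147 RPM in IgG and 293 ± 123 RPM in m6A samples. miR-6719-3p had 968, 1034 and 573 RPM in input, 18.9, 13.98 and 26.8 RPM in IgG and 33.4, 42.6 and 60.5 RPM in m6A samples. It was lower than input in both, with log2 fold changes of -4.19 ± 0.47 in m6A and -5.56 ± 0.53 in IgG. miR-6826-3p, from the region of the coatomer gene COPG1, had 2, 5 and 0 reads in IgG and 10.5, 12.5 and 7.04 RPM in m6A samples, against 106, 153 and 88.0 RPM in input. miR-6832-3p had 354, 238 and 307 RPM in input, 2.70, 11.4 and 26.8 RPM in IgG and 42.1, 40.4 and 41.4 RPM in m6A samples. The m6A values of the clones lay close together, whereas the IgG values rest on 2, 9 and 5 reads.

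At the other end, miR-6729-3p had 5, 14 and 8 reads or 3.55, 9.59 and 5.33 RPM in input, 199.6, 230.1 and 327 RPM in IgG and 151, 144 and 155 RPM in m6A samples. Both precipitates were higher than input in every clone. Its log2 fold change was 4.64 ± 0.50 in m6A (edgeR adjusted p = 7.4e-09) and 5.35 ± 0.55 in IgG (edgeR adjusted p = 3.8e-21). The values in m6A and in IgG were 4.54 and 5.18 for miR-6800-3p, 4.38 and 5.14 for miR-6760-3p, 4.31 and 4.84 for miR-6825-3p and 4.15 and 4.92 for miR-6805-3p. These 5 were not called higher in m6A than in IgG, but in every clone their m6A value was below their IgG value, and with TMM factors all 5 were called lower in m6A. miR-6746-3p was the most abundant of this kind among the 10 leading 3p arms. It had 85.2, 124 and 72.6 RPM in input, 1189.6, 1189 and 1110.2 RPM in IgG and 1104, 934 and 1148 RPM in m6A samples, and the difference of m6A from IgG did not pass the test (log2 fold change -0.14 ± 0.25, edgeR adjusted p = 0.695; with TMM factors -0.88, adjusted p = 0.033).

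miR-6730-3p differed from both kinds. It had 149.8, 151 and 105 RPM in input, so that it was lower than input in IgG (log2 fold change -2.59 ± 0.52, edgeR adjusted p = 2.4e-06) and higher than input in m6A (2.16 ± 0.40, edgeR adjusted p = 2.7e-05). The second call was lost with TMM factors (0.61, adjusted p = 0.096). miR-6734-3p was higher than input in m6A (4.33 ± 0.49, edgeR adjusted p = 2.0e-08) and, with 17.04, 21.9 and 41.3 RPM in input, also in IgG (1.36 ± 0.50, edgeR adjusted p = 0.0126), a call that was lost with TMM factors (0.84, adjusted p = 0.095). For IgG against input the fit used the spread over all miRNAs in place of that of each miRNA, so these p-values take no account of a miRNA's own spread.

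**Figure D4:**
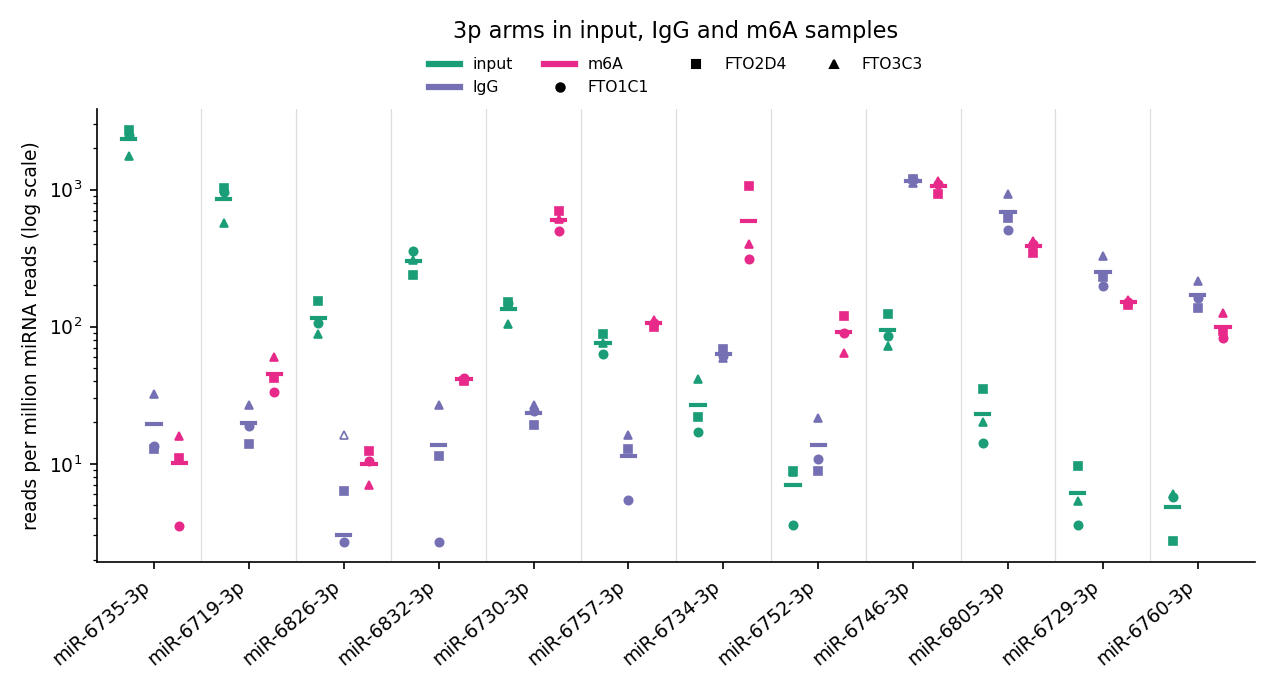
RPM of total miRNA reads (log axis) of 12 3p arms in input, IgG and m6A libraries. Points are libraries, shaped by clone, bars are group means, and the open triangle is a library with 0 reads drawn at the value of 3 reads. miR-6735-3p and miR-6719-3p were highest in input, miR-6730-3p and miR-6734-3p in m6A, and miR-6805-3p, miR-6729-3p and miR-6760-3p in IgG.

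The arms of a hairpin are cut from the same precursor, and both were counted in the same library. With 0.5 RPM added to each arm, their ratio depends little on the scale unless an arm has few reads. For 120 hairpins both arms were counted in all groups. The median log2 ratio of the 3p to the 5p arm was -0.45 with scrambled siRNA, -0.50 with FTO siRNA, 0.11 in input, 0.21 in IgG and -0.49 in m6A samples. The 3p arm was higher in all 3 clones for 38, 37, 49, 47 and 28 of the 120 hairpins in these groups, and the 5p arm for 57, 68, 43, 36 and 58. The siRNA groups and the precipitation groups come from separate experiments. The same ratios over other hairpins are not given here, so these values do not set the block apart. miR-6735 turned from a log2 ratio of 7.87 ± 0.65 in input to -3.42 ± 0.20 in IgG and -4.93 ± 1.62 in m6A samples (SD, n = 3). miR-6730 had 6.52 ± 0.24 with scrambled siRNA and 4.03 ± 0.14 in m6A samples, so its 3p arm led in both. The experiments are separate, so the lower ratio in m6A samples cannot be read as a change through precipitation. In input its 5p arm had 12.1, 6.85 and 5.33 RPM, below the input levels of its 3p arm given above. The 3p arm thus led in input too. It did not lead in IgG samples, where the levels of its arms given above overlapped and rested on few reads.

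**Figure D5:**
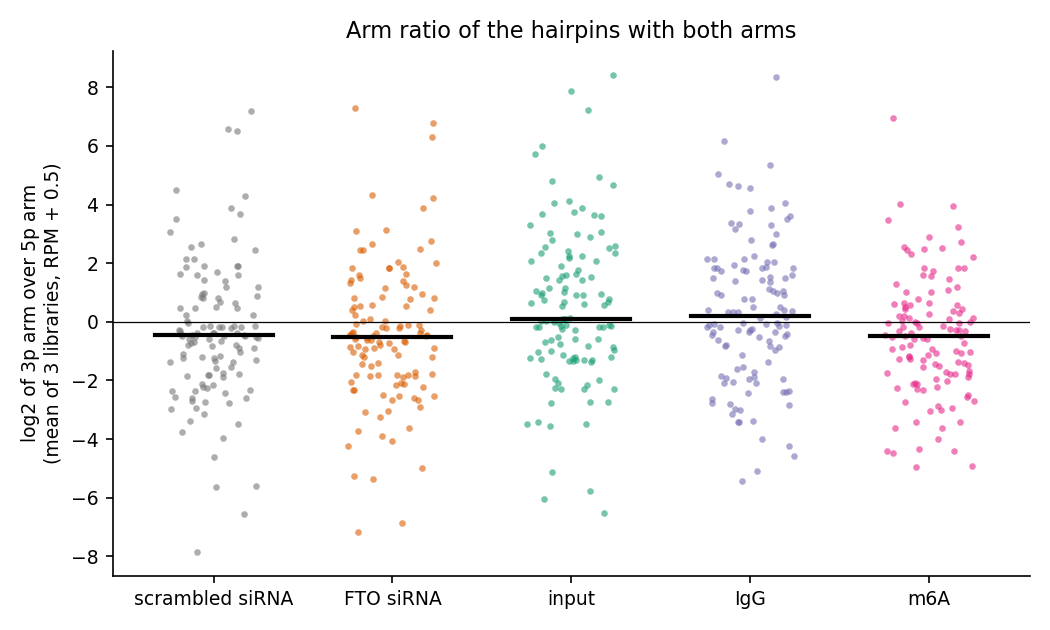
Log2 of the 3p arm over the 5p arm (mean of 3 libraries, each RPM + 0.5) for the 120 hairpins with both arms counted in all groups. Points are hairpins and black bars are medians, which lay at -0.45 and -0.50 after scrambled and FTO siRNA, at 0.11 and 0.21 in input and IgG and at -0.49 in m6A samples.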

How the data were processed

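The authors removed adapters with cutadapt, which needed 4 bp of overlap and allowed 20% error. Reads of 16 to 28 bp were then compared with the mature miRNAs of miRBase 20, and a miRNA needed stretches of 7 or more bases that covered 17 or more. The values are the counts the authors deposited, without normalization, and RPM of total miRNA reads were computed from them.

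Differences were tested on these counts with edgeR's quasi-likelihood test (edgeR 4.0.16, R 4.3.3, filterByExpr at 10 counts, total miRNA reads as library sizes, clone as a block) over all miRNAs, with Benjamini-Hochberg adjustment and a threshold of 0.05. In ratios within a clone, 0 reads in IgG were replaced by 3. The ratio rules use thresholds of the study with a mean ratio chosen here. The 0.5 RPM in the arm ratios avoids division by 0. The test was tested on simulated data. Alternatives were TMM factors, DESeq2 1.42.0, no filter, no block, other cutoffs, each clone left out, totals without miR-6080 and all 9 precipitation libraries in 1 fit.

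Libraries of 1 clone are paired by the labels. Deviations from group means correlated within clones at 0.182, 0.115 and 0.157 in the knockdown and at -0.08 to 0.06 in the precipitation. Libraries of the same group differed beyond sampling noise (chi-square per degree of freedom 6.11 to 145).

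The 3p arms and lists were chosen with earlier results of these data known. Named are the 10 most abundant 3p arms, in each comparison up to 5 with the largest change each way among those called and moving alike in all clones, miR-6739-3p and miR-6769a-3p, and their seed and arm partners. 3p arms named for a motif, for 0 adenosines or by a ratio rule, and miR-6766-3p, were picked after their values were seen. The positions of some 3p arms are not reported here.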

Additional observations from a re-analysis of the deposited data

How the results depend on the processing

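After FTO siRNA the count of higher 3p arms, 3 in the report, was 1 with TMM factors, 0 with DESeq2 (which left 2 of the 3 without an adjusted p), 1 with no replicate block and 0 to 9 with 1 clone left out. The count of lower ones, 0 in the report, was 1 with TMM factors and with DESeq2 and 0 to 2 with 1 clone left out. For m6A against IgG, 15 higher became 9 with TMM factors, DESeq2 or totals without miR-6080, and 8 to 13 with 1 clone left out. The 5 lower became 39, 32 and 34 under those scales and 1 to 2 with 1 clone left out. For m6A against input, 74 higher became 33 with TMM factors and 29 with DESeq2, and 16 lower became 43, 40 and, with totals without miR-6080, 8. For IgG against input, 56 higher became 37 with DESeq2 and 88 with totals without miR-6080, and 18 lower became 11 with the latter. Shares of all miRNAs are given above for the main test and for TMM factors only. The counts under the other settings therefore show how calls depend on the setting and do not set the 3p arms apart from other miRNAs. The cause of the changes in count was not tested. The pairing by clone in the block changed no other count by over 1.5 times.

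By the ratio rules, 17 in place of 40 3p arms were expressed at 30 RPM. Of the 13 increased ones 2 were left with all 3 ratios past the threshold, at 2-fold or with TMM-scaled RPM. The 1 decreased became 0, 0 and 3, and 0 to 2 with 1 clone left out. The 7 enriched became 21 at 15 RPM and 4 with all 3 ratios at least 2 or with TMM-scaled RPM. For the ratio rules, shares of all miRNAs are given above in their main form only.

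In m6A against input, 22 of the 74 higher 3p arms were below 0 with TMM factors. Among the named ones the direction reversed for miR-6890-3p (-0.58 with TMM factors, -0.57 with DESeq2), miR-6748-3p (-0.27 and -0.29) and miR-6769a-3p (-0.51 and -0.54), and in IgG against input for miR-6872-3p with totals without miR-6080 (0.088). The IgG library of FTO3C3 limits the depth, since 3 reads there equal 16.1 RPM and 7 of the 130 3p arms had 0 reads.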

Other observations

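miR-6766-3p, from the region of the mitochondrial DNA polymerase gene POLG (chr15:89326742-89326763, -), was picked after its values were seen. It had 4.398, 3.65 and 6.53 RPM with scrambled siRNA but 1485, 1753 and 1069.7 RPM in input of the same clones. It was the most abundant 3p arm in IgG samples, with 3465, 4138 and 2633 RPM, and in m6A samples, with 2284, 2220.5 and 2342 RPM. It was lower in m6A than in IgG in each clone, but this did not pass the test (log2 fold change -0.56 ± 0.26, edgeR adjusted p = 0.124). Its mature sequence holds 3 adenosines:
miR-6766-3p: uGAUUGUCuucccccacccuca

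The counts of the knockdown and of the precipitation were set side by side without a test, since they come from separate experiments. Of the 128 3p arms in both, 9 had at least 10 times the RPM in input that they had with scrambled siRNA, and 0 had a level lower by the same factor. 74 were higher in input, with a median log2 ratio of 0.18. The same counts over all miRNAs are not given here, so these do not set the 3p arms apart from other miRNAs. The make-up of the libraries differed as well, since miR-6080 took 2.05 to 4.18% of the reads with scrambled siRNA and 15.5 to 28.4% in input.

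miR-6784-3p (chr17:45114367-45114388, -, PLCD3) and miR-6862-3p (chr16:28390984-28391007, -, EIF3CL, for the MIR6862-1 copy) share the seed CUCACCC and hold 4 and 2 adenosines. miR-6784-3p had 18.9, 21.6 and 80.5 RPM in IgG and 160, 268 and 142 RPM in m6A samples (log2 fold change 2.55 ± 0.55, edgeR adjusted p = 0.00592). miR-6862-3p had 39.1, 34.3 and 16.1 RPM in IgG and 19.3, 25.7 and 30.6 RPM in m6A samples (-0.31 ± 0.44, edgeR adjusted p = 0.614). The difference between them was not tested:
miR-6784-3p: uCUCACCCcaacucugccccag
miR-6862-3p: cCUCACCCagcucucuggcccucu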
